A study of Mus musculus with 35 samples.

Results

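The genes described here encode the eukaryotic translation initiation factors of the mouse, the proteins that bring a ribosome, an mRNA and the initiator tRNA together at a start codon. They were taken by name from the deposited gene table, as the rows that begin with Eif followed by a digit from 1 to 6. Of 24480 genes, 55 names matched; 2 were left out by name (Eif4e1b and Eif4enif1), and 1, Eif2s3y, had a summed count of 76 over all samples, below the minimum of 100. The remaining 52 genes are the initiation factor genes of this report. Just inside the minimum were Eif4ebp3, Eif4ebp1 and Eif2ak2, with summed counts of 239, 527 and 775.

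Initiation in animals usually starts at the 5′ cap. eIF4E binds the cap, eIF4G holds eIF4E, the helicase eIF4A and the ribosome-bound factor eIF3 together, and 4E-BPs compete with eIF4G for eIF4E. The small ribosomal subunit carries eIF1, eIF1A, eIF3, eIF5 and the initiator tRNA bound to eIF2 with GTP, scans to the start codon, and releases eIF2 with GDP, which eIF2B recharges. Kinases that phosphorylate eIF2α block eIF2B and lower initiation. In the egg and the early embryo, transcription is largely silent and proteins are made from mRNAs that the oocyte stored, many of which are degraded around the first division.

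The embryos were WT C57BL/6NRj mice fertilised in vivo, and every one was injected into the cytoplasm. Zygotes (1-cell embryos) received either Kdm5b-yfp mRNA at about 1150 ng/µl or the water in which that mRNA was eluted, and were taken late in their cell cycle. The 2-cell (2C) embryos came from zygotes that had been frozen and thawed, received the same agents 1 to 2 h after division, and were taken in S phase, before the main activation of the embryonic genome. The groups are Ctrl water zygote (10 samples), Kdm5b zygote (10), Ctrl water 2C (9) and Kdm5b 2C (6). Each zygote sample was 1 embryo. In the Ctrl water 2C group, 6 samples were 1 intact embryo each, 1 was a pool of 2 surviving blastomeres from 2 embryos, and 2 were pools of 3 blastomeres from 3 embryos; in the Kdm5b 2C group, 5 were intact embryos and 1 was a pool of 3 blastomeres. KDM5B removes methyl groups from H3K4me3, and the injection tested whether early loss of that mark changes transcription. No RNA other than Kdm5b-yfp was injected in these samples, so the enzyme's activity cannot be told apart from the presence of foreign mRNA.

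Fragments on genes numbered 12597267 to 17797581 per sample in Ctrl water zygotes, 11627845 to 16632074 in Kdm5b zygotes, 8705584 to 12877962 in Ctrl water 2C and 11248797 to 13117592 in Kdm5b 2C. The median share on Kdm5b was 0.000610% and 3.91% in the control and injected zygotes and 0.00513% and 11.3% in the control and injected 2C samples; that row was removed before any scaling. Levels are given as TPM, the count per base of exon scaled so that all genes other than Kdm5b add up to 1000000 in a sample. Fold changes (2C over zygote, or Kdm5b over water) come from edgeR's quasi-likelihood test on TMM-scaled counts, with Benjamini-Hochberg adjustment over all genes tested, and a gene was called at an adjusted p under 0.05. TPM ratios lay below these fold changes by a median of 0.15 on the log2 scale between the stages in controls and 0.11 in injected embryos. No spike-in was added, so every value is a share of the RNA in a sample, which held 1 cell in zygotes and 2 or 3 in 2C; less of an mRNA per cell and more of the other mRNAs cannot be told apart. Libraries of the 2 stages were made on different days, and only the 2C embryos had been frozen; stage cannot be told apart from these.

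The cell identity markers matched the labels. All 10 oocyte and zygote markers were found, with a summed level between 10596 and 13856 TPM in Ctrl water zygotes and between 5794 and 10105 TPM in Ctrl water 2C; Dppa3 was the most abundant. Between control zygotes and control 2C, 8 of these 10 fell and 0 rose, where 25.4% of all tested genes fell and 26.8% rose. Dppa3 (log2 fold change -0.05, adjusted p = 0.672 with edgeR) and Bmp15 (-0.13, adjusted p = 0.362) were not called. Of 10 markers of the 2-cell stage, 9 were tested and all 9 rose. Among them Zscan4f, Gm8300 and Gm5662 were too scarce for a test between the zygote groups. Their 2C counts brought them into the stage fit, so their rise is no separate support for the labels. The list summed to between 27.0 and 119 TPM in Ctrl water zygotes and between 338 and 1397 TPM in Ctrl water 2C. Usp17lc was the most abundant in Ctrl water 2C. Tdpoz4 was at 0 in all zygotes. Cumulus cell markers, which would show follicle cells carried over, summed to medians of 31.6, 36.3, 33.4 and 21.6 TPM in Ctrl water zygote, Kdm5b zygote, Ctrl water 2C and Kdm5b 2C. Cyp19a1 made up most of that sum in each group, and 5 of the 10 genes, among them Ptx3, Tnfaip6, Lhcgr and Areg, had a median of 0 in Ctrl water zygotes. None of the 3 cumulus genes tested was called between the control stages; in injected embryos Cyp19a1 fell by 0.87 on the log2 scale (adjusted p = 0.00147 with edgeR) and Kitl rose by 1.06 (adjusted p = 0.00135), and their part in the stage differences was not tested.

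In Ctrl water zygotes the initiation factor genes held a median of 0.779% of all TPM, and the most abundant, Eif1b, Eif2s2, Eif4a1 and Eif4b, made up 31.2% of that share. Median levels ran from 0.621 TPM for Eif2ak2, the RNA-activated eIF2α kinase, to 746 TPM for Eif1b; 26 genes had a median above 100 TPM and 7 one below 10 TPM. Summed over all 52 genes, the level lay between 7403 and 7962 TPM with a median of 7794 in Ctrl water zygotes and between 7208 and 7772 with a median of 7494 in Kdm5b zygotes. In 2C it lay between 5289 and 6881 with a median of 6203 in Ctrl water samples and between 5115 and 6388 with a median of 5847 in Kdm5b samples. No 2C sample reached the lowest zygote. The 3 control pools of blastomeres summed to 5289, 5630 and 5918 TPM and the intact control 2C embryos to between 5632 and 6881; the Kdm5b pool, at 5115 TPM, was the lowest of its group. As a ratio of means, 2C held 0.788 of the zygote level in controls and 0.781 in injected embryos, whereas on TMM-scaled CPM, in which long and short genes weigh by their counts, these ratios were 0.892 and 0.923. In the 2C samples the order of the genes changed as well: Eif5a, Eif1, Eif4a1 and Eif1b led in Ctrl water 2C, and 17 genes had a median above 100 TPM.

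Between Ctrl water zygotes and Ctrl water 2C, 51 initiation factor genes were tested. Of these, 23 (45.1%) fell, where 25.4% of all 11968 tested genes fell, and 11 (21.6%) rose, where 26.8% of all genes rose. Eif1a and Eif4ebp1, among those that rose, were too scarce for a test between the zygote groups. They entered the stage fits through their 2C counts. Past a log2 fold change of 1 in addition, 14 (27.5%) fell and 4 (7.84%) rose, against 13.0% and 9.20% of all genes. In TPM, all 2C samples lay below all zygotes for 13 of the 51 genes (25.5%) and above all for 3 (5.88%), against 11.9% and 5.90% of all genes. The median log2 fold change was -0.30 over the initiation factor genes and 0.02 over all genes. In the Kdm5b-injected embryos, which share no sample with the controls, 25 of 51 fell and 12 rose, where 29.5% and 29.3% of 12390 genes did, with a median of -0.48 against 0.01. Of the genes tested in both, 22 fell in both comparisons, 10 rose in both, 0 were called in opposite directions and 12 were called in neither. The log2 fold changes had the same sign for 48 of 51. Agreement was not counted over all genes, so whether it is particular to the initiation factor genes was not tested. Both comparisons also share the difference in library day and freezing. The gene by gene plot of both comparisons shows the pattern by role, and the levels below follow it.

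**Figure D1:**
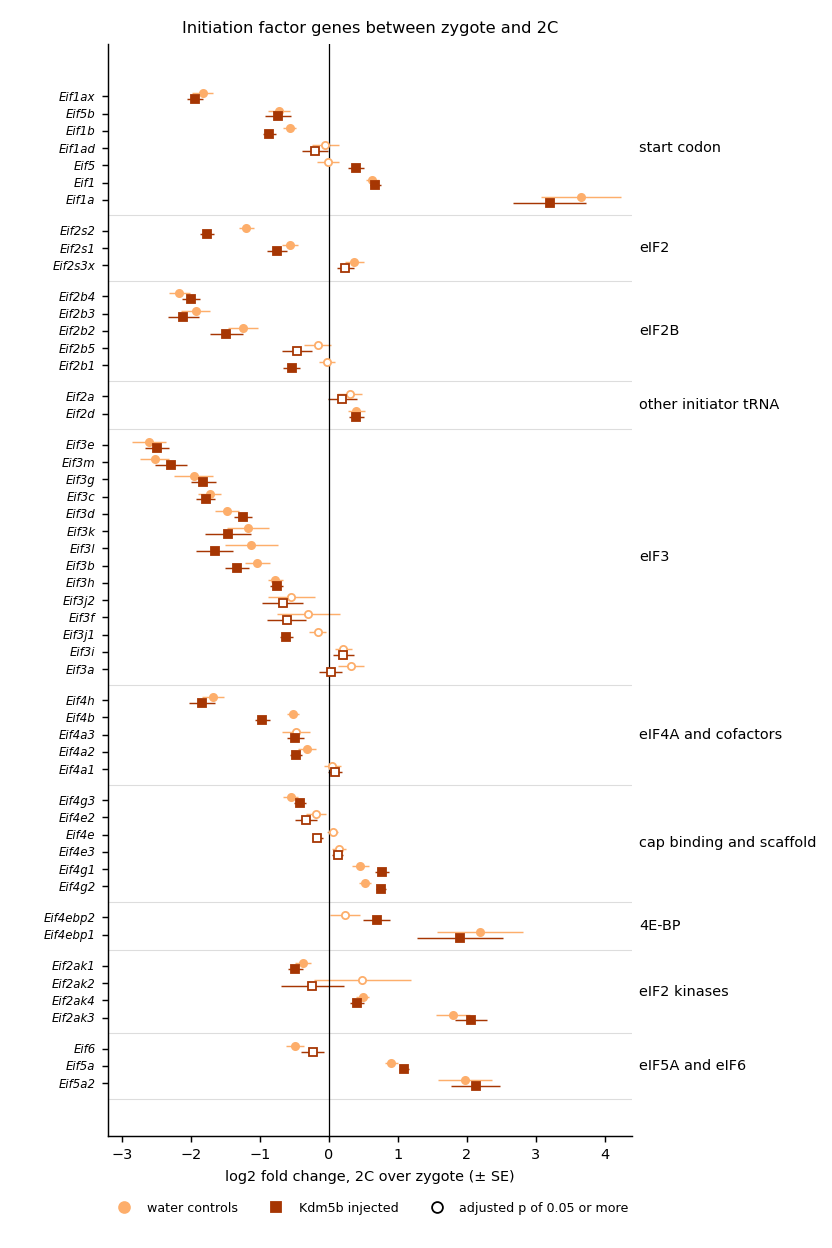
Log2 fold change of each initiation factor gene from zygote to 2C (x axis, with its standard error) in water controls (light circles) and Kdm5b-injected embryos (dark squares), grouped by role on the right. Open symbols have an adjusted p of 0.05 or more. Most eIF3 and eIF2B genes lie left of 0, and Eif1a, at 3.65 in controls, lies farthest to the right.

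eIF3 is the largest initiation factor, a complex of many subunits that sits on the small ribosomal subunit and recruits the mRNA. Of its 14 genes, 9 fell and 0 rose from Ctrl water zygote to Ctrl water 2C, where 25.4% of all genes fell and 26.8% rose. In injected embryos 10 fell and 0 rose, where 29.5% of all genes fell and 29.3% rose. The median log2 fold changes of the eIF3 genes were -1.08 and -1.29. The summed eIF3 level was 1186 to 1464 TPM with a median of 1357 in Ctrl water zygotes and 566 to 834 with a median of 668 in Ctrl water 2C. Injected zygotes summed to 1078 to 1328 TPM with a median of 1243 and injected 2C samples to 491 to 627 with a median of 564. No 2C sample overlapped with a zygote at either injection. Without the pools of blastomeres, 9 fell and 1, Eif3a, rose in controls, where 21.9% of all genes fell and 23.3% rose, and 11 fell and 0 rose in injected embryos, where 28.4% fell and 27.8% rose.

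The drop was uneven across the complex. Eif3e, Eif3m, Eif3g, Eif3c, Eif3d, Eif3k, Eif3l, Eif3b and Eif3h fell in controls, by log2 fold changes from -2.61 for Eif3e to -0.78 for Eif3h. Eif3a and Eif3b, with Eif3c, Eif3g and Eif3i, form the part of the complex that is conserved to yeast, and these 5 split: Eif3a, the largest subunit, had 0.32 ± 0.19 (SE, adjusted p = 0.164 with edgeR), or 0.55 ± 0.16 (adjusted p = 0.00648) with single intact 2C embryos only, and Eif3i 0.21 ± 0.13 (adjusted p = 0.176), whereas Eif3b had -1.04 ± 0.18 (adjusted p = 3.43e-05). Eif3f, Eif3j1 and Eif3j2 were not called in controls. Eif3j1 and Eif3j2 are near copies of each other, so fragments from their shared parts were not counted for either. In injected embryos Eif3j1 fell as well, by 0.61 on the log2 scale.

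Eif3e, also known as Int6 from mouse tumour virus integrations, had the largest drop. It ran from 143 to 222 TPM with a median of 173 in Ctrl water zygotes, and from 12.7 to 63.5 TPM with a median of 24.5 in Ctrl water 2C. In injected embryos it ran from 140.3 to 209.7 TPM (median 164) in zygotes and from 14.0 to 43.2 TPM (median 26.8) in 2C. All 2C samples lay below all zygotes, 6.09-fold lower in controls by the fit (log2 fold change -2.61 ± 0.25, SE; adjusted p = 4.1e-09) and 5.62-fold lower in injected embryos.

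Eif3m, a subunit of the outer ring of the complex, ran from 75.2 to 118 TPM with a median of 86.1 in Ctrl water zygotes and from 8.29 to 26.8 TPM with a median of 12.3 in Ctrl water 2C. Its Kdm5b zygotes spanned 63.1 to 106 TPM (median 79.0) and its Kdm5b 2C samples 8.17 to 30.7 TPM (median 11.1). The stages did not overlap at either injection, with log2 fold changes of -2.53 ± 0.20 (SE, adjusted p = 2.6e-10) in controls and -2.29 ± 0.23 in injected embryos. Eif3c, a scaffold subunit that contacts eIF1 and eIF5, ran from 119 to 229 TPM (median 170.1) in Ctrl water zygotes and from 30.1 to 88.9 TPM (median 42.2) in Ctrl water 2C. It ran from 121 to 182 TPM (median 140.5) in Kdm5b zygotes and from 24.4 to 57.7 TPM (median 38.7) in Kdm5b 2C. Here too all 2C samples lay below all zygotes, with log2 fold changes of -1.73 ± 0.16 (SE, adjusted p = 2.68e-09) and -1.78 ± 0.14 (adjusted p = 1.18e-10).

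**Figure D2:**
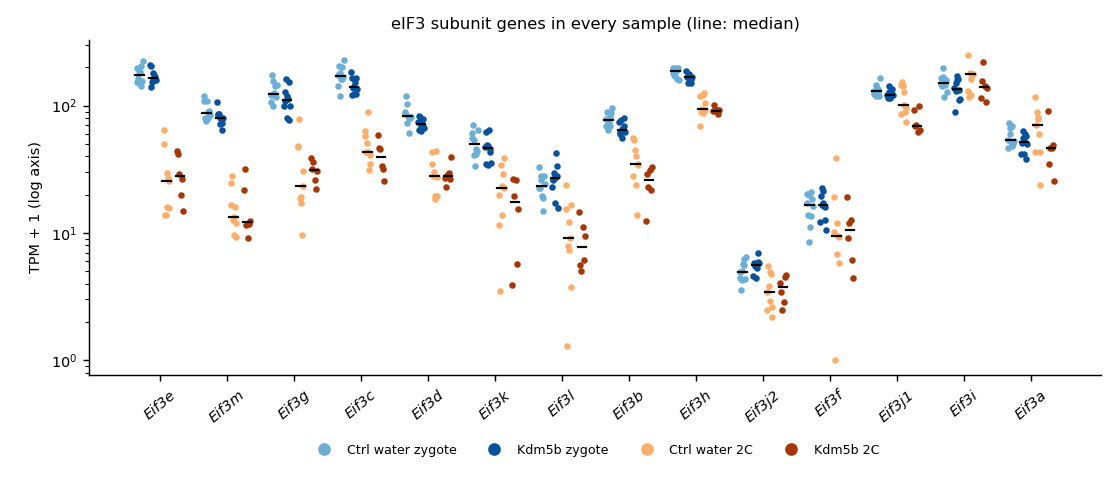
TPM + 1 on a log axis for each eIF3 gene (x axis, ordered by fold change) in all 35 samples, with a bar at each group's median. Zygotes (blue) and 2C samples (orange and brown) are apart for Eif3e, Eif3m, Eif3c and Eif3d, and mixed for Eif3i and Eif3a.

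Promoters of eIF3 genes are shown because 5 of the 10 with a window hold the same short word, a pattern seen in these data before the genes were chosen for printing. Promoter windows of 300 bases, 250 before to 50 after the annotated start, were available from RefSeq (GRCm38.p6) for 41 of the 52 genes and for 27025 genes in all. The word CCGGAAG, the core that ETS factors bind, was searched on both strands together with 4 others, of which none contains another. Printed here are the 100 bases before and 10 bases after the start, 5′ to 3′ on the gene's strand, with the word (or CTTCCGG, the same word on the other strand) in capitals. The first 7 are the eIF3 genes with a window that fell in controls, of which 5 hold the word and Eif3b and Eif3k do not. Eif3a and Eif3f, which were not called, have no match either, nor has the uncalled Eif3j1, which is not printed. Eif3e and Eif3h, which fell, had no entry in the promoter table used here.
Eif3c, chr7:126566357-126566466, minus strand: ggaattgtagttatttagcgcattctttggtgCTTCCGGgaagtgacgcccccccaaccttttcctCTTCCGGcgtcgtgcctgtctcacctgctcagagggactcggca
Eif3d, chr15:77970815-77970924, minus strand: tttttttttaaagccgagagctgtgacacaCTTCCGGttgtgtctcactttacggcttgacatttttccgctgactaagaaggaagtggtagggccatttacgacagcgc
Eif3g, chr9:20898581-20898690, minus strand: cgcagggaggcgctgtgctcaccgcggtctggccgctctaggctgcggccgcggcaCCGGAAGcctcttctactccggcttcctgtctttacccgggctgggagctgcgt
Eif3l, chr15:79075123-79075232, plus strand: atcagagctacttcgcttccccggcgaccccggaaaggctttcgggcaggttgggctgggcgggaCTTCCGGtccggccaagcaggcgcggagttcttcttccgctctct
Eif3m, chr2:105017018-105017127, minus strand: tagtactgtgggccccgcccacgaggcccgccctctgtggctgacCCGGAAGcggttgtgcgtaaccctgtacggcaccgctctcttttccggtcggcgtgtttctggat
Eif3b, chr5:140419205-140419314, plus strand: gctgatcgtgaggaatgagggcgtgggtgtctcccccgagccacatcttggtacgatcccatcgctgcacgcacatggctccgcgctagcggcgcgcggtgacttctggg
Eif3k, chr7:28981879-28981988, minus strand: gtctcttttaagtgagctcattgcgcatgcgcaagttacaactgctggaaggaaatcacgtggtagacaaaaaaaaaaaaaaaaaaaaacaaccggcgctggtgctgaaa
Eif3a, chr19:60790684-60790793, minus strand: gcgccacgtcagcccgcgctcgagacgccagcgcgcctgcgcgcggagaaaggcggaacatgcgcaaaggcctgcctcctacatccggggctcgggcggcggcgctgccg
Eif3f, chr7:108934315-108934424, plus strand: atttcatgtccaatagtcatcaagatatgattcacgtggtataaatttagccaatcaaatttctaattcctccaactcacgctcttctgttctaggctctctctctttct

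The word begins 68 and 34 bases before the start in Eif3c, 70 in Eif3d, 44 in Eif3g, 35 in Eif3l and 55 in Eif3m. Over all the windows of 300 bases, CCGGAAG was present in 15 of the 41 initiation factor genes (36.6%) and in 9.93% of all 27025 genes. It was in 19.9% of the 9206 genes that had a window and were tested between the control stages. Among the initiation factor genes it was in 10 of 19 that fell (52.6%), 2 of 8 that rose (25.0%) and 3 of 14 that were not called (21.4%). Over the 9206 tested genes with a window, it was in 26.5% of those that fell and 18.1% of those that rose. Outside eIF3 the holders that fell were Eif1ax, Eif1b, Eif2ak1, Eif2b2 and Eif2b4, and those that rose were Eif5a and Eif5a2. CACGTG, the E-box, was in 24.4% of the 41 and 8.09% of all genes. Among the initiation factor genes it was in 3 of 8 that rose (Eif4g1, Eif5a and Eif5a2), 3 of 19 that fell and 4 of 14 that were not called. Over the tested genes with a window, it was in 11.7% of those that rose and 12.7% of those that fell. AAGATGGC (YY1) was in 9.76% and 3.19%, GCATGCGC (NRF1) in 7.32% and 3.05%, and CCAAT (NF-Y) in 34.1% and 41.1%. Over the same 9206 genes the shares were 11.8% for the E-box, 5.43% for YY1, 6.33% for NRF1 and 44.0% for NF-Y. These shares are a description with no test, and a match is not evidence that a factor binds there.

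eIF2 carries the initiator tRNA, and eIF2B is the exchange factor that reloads it with GTP. The summed eIF2 level was 676 to 863 TPM (median 769) in Ctrl water zygotes and 255 to 492 TPM (median 367) in Ctrl water 2C. For eIF2B the sums were 423 to 542 TPM (median 475) and 220.4 to 406 TPM (median 301). In both complexes every 2C sample of either injection lay below every zygote of the same injection. Of the 5 eIF2B genes 3 fell and 0 rose in controls, where 25.4% of all genes fell and 26.8% rose. In injected embryos 4 fell and 0 rose, where 29.5% of all genes fell and 29.3% rose.

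Eif2s2, the β subunit of eIF2, was the second most abundant of all the initiation factor genes in Ctrl water zygotes, at 556 to 693 TPM with a median of 636. It ran from 169 to 387 TPM with a median of 259 in Ctrl water 2C. Among injected embryos it ran from 509 to 759.6 TPM (median 581) in zygotes and from 135 to 217 TPM (median 159.8) in 2C. The stages did not overlap, and the log2 fold change was -1.20 ± 0.11 (SE, adjusted p = 1.83e-09) in controls and -1.77 ± 0.10 (adjusted p = 1.05e-12) in injected embryos. Eif2s1, the α subunit that the kinases phosphorylate, fell by 0.57 on the log2 scale in controls and by 0.75 in injected embryos. Eif2s3x, the γ subunit that binds the tRNA and GTP, had 0.37 ± 0.14 in controls (adjusted p = 0.0303), a call that was lost in 5 of 28 alternative fits, and 0.24 ± 0.12 (adjusted p = 0.0927) in injected embryos.

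Eif2b4, the δ subunit of eIF2B, had the smallest p of all initiation factor genes between the control stages. It ran from 95.5 to 153 TPM with a median of 124 in Ctrl water zygotes and from 16.7 to 40.7 TPM with a median of 26.0 in Ctrl water 2C. Its Kdm5b zygotes spanned 92.5 to 123 TPM (median 106) and its Kdm5b 2C samples 19.5 to 36.4 TPM (median 23.3). All 2C samples lay below all zygotes, 4.50-fold lower in controls (log2 fold change -2.17 ± 0.15, SE; adjusted p = 2.13e-11) and 4.00-fold lower in injected embryos (adjusted p = 9.62e-12). Eif2b3 and Eif2b2, the γ and β subunits, fell by 1.93 and 1.25 on the log2 scale in controls. Eif2b5, the catalytic ε subunit, and Eif2b1, the α subunit, had -0.16 ± 0.19 and -0.02 ± 0.11 and were not called in controls; in injected embryos Eif2b1 fell by 0.54 and Eif2b5 had -0.46 ± 0.22 (adjusted p = 0.0778). Subunits of the same exchange factor thus ran from medians of 8.24 TPM (Eif2b2) to 247 TPM (Eif2b1) in Ctrl water 2C, and from 21.3 TPM (Eif2b5) to 275 TPM (Eif2b1) in Ctrl water zygotes. The word CCGGAAG begins at the second base of the Eif2b4 transcript, in the window chr5:31193130-31193239 on the minus strand.
Eif2b4, chr5:31193130-31193239, minus strand: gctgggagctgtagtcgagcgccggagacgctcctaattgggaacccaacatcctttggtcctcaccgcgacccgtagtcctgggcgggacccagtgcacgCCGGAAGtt

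Eif2a and Eif2d, which can bring tRNA to the ribosome without eIF2, summed to between 45.2 and 63.4 TPM in Ctrl water zygotes and between 52.7 and 79.6 TPM in Ctrl water 2C. Eif2d rose by a log2 fold change of 0.40 in controls and 0.40 in injected embryos, and Eif2a was not called in either.

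The factors that scan for and recognise the start codon moved in both directions, also between close relatives. Of 7 genes, 3 fell (Eif1ax, Eif5b and Eif1b), 2 rose (Eif1 and Eif1a) and Eif1ad and Eif5 were not called in controls. Over all genes 25.4% fell and 26.8% rose, and the counts for these 7 are a description with no test. Eif1 and Eif1b encode near-identical forms of eIF1, the guardian of start codon choice. Eif1 ran from 295 to 407 TPM with a median of 382 in Ctrl water zygotes and from 359 to 643 TPM with a median of 537 in Ctrl water 2C. Eif1b ran from 642 to 819.8 TPM with a median of 746 and from 320.3 to 615 TPM with a median of 465 in the same groups. For Eif1, 8 of 9 control 2C samples lay above all control zygotes, and for Eif1b all 9 lay below.

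In injected embryos Eif1 ran from 366 to 437 TPM (median 377) in zygotes and from 464 to 636 TPM (median 584) in 2C. Eif1b ran from 661 to 835 TPM (median 758) and from 302 to 439 TPM (median 387), so that both genes had separate stages there. The log2 fold changes were 0.63 ± 0.10 (SE, adjusted p = 4.62e-06) for Eif1 and -0.57 ± 0.10 (adjusted p = 2.23e-05) for Eif1b in controls, and 0.67 ± 0.08 and -0.86 ± 0.10 in injected embryos. Median TPM of Eif1b was above that of Eif1 in both zygote groups and below it in both 2C groups. The Eif1 promoter holds no CCGGAAG in its window of 300 bases, of which chr11:100319849-100319958 on the plus strand is printed here. The Eif1b promoter has it 150 bases before the start, which lies outside the 100 bases before the start that are printed for other genes.
Eif1, chr11:100319849-100319958, plus strand: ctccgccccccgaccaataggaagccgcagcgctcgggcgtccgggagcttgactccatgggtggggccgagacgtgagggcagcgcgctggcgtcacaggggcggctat

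eIF1A, which works with eIF1 during scanning, has an X-linked gene, Eif1ax, and an autosomal one, Eif1a. Eif1ax ran from 268 to 394 TPM with a median of 320.2 in Ctrl water zygotes and from 37.0 to 131 TPM with a median of 83.1 in Ctrl water 2C. In injected embryos it ran from 268 to 391 TPM (median 335) in zygotes and from 65.6 to 95.1 TPM (median 82.8) in 2C. The stages did not overlap, with log2 fold changes of -1.83 ± 0.16 (SE, adjusted p = 5.63e-10) and -1.94 ± 0.11 (adjusted p = 1.13e-12).

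Eif1a was scarce throughout. It ran from 0 to 1.88 TPM with a median of 0.667 in Ctrl water zygotes, at most 27 counts, and from 2.02 to 14.4 TPM with a median of 6.13 in Ctrl water 2C, 22 to 170 counts. Its Kdm5b zygotes spanned 0 to 1.32 TPM (median 0.462) and its Kdm5b 2C samples 1.24 to 6.97 TPM (median 4.26). All control 2C samples lay above all control zygotes, and 5 of 6 injected 2C samples above all injected zygotes, with log2 fold changes of 3.65 ± 0.58 (SE, adjusted p = 7.75e-06) and 3.20 ± 0.53 (adjusted p = 1.45e-05). Eif1a was too scarce for a test between the zygote groups. Its 2C counts brought it into the stage fits, so these p-values are not independent of that selection. Mouse has a family of Eif1a-like genes that are switched on at the 2-cell stage, among them Gm5662 and Gm8300, which reached medians of 72.9 and 71.2 TPM in Ctrl water 2C from 0 and 0.137 TPM in Ctrl water zygotes. Fragments that fit more than 1 gene were not counted, so how much of the Eif1a signal belongs to its copies was not tested. In Ctrl water 2C the median level of Eif1ax was still above that of Eif1a.

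Eif5b, the GTPase that joins the large subunit, fell by 0.72 on the log2 scale in controls and 0.74 in injected embryos. Eif5, which makes eIF2 hydrolyse its GTP, had -0.01 ± 0.16 (adjusted p = 0.959) in controls and rose by 0.40 in injected embryos (adjusted p = 0.00598). The 3 control pools of blastomeres had 146, 161 and 171 TPM of Eif5 and the intact control 2C embryos 285 to 450 TPM, without overlap; with intact embryos only Eif5 rose in controls too, by 0.27 ± 0.10 (adjusted p = 0.0283). Eif1ad, an eIF1A-like gene, was called in neither. The plot of related genes sets the opposed pairs side by side.

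**Figure D3:**
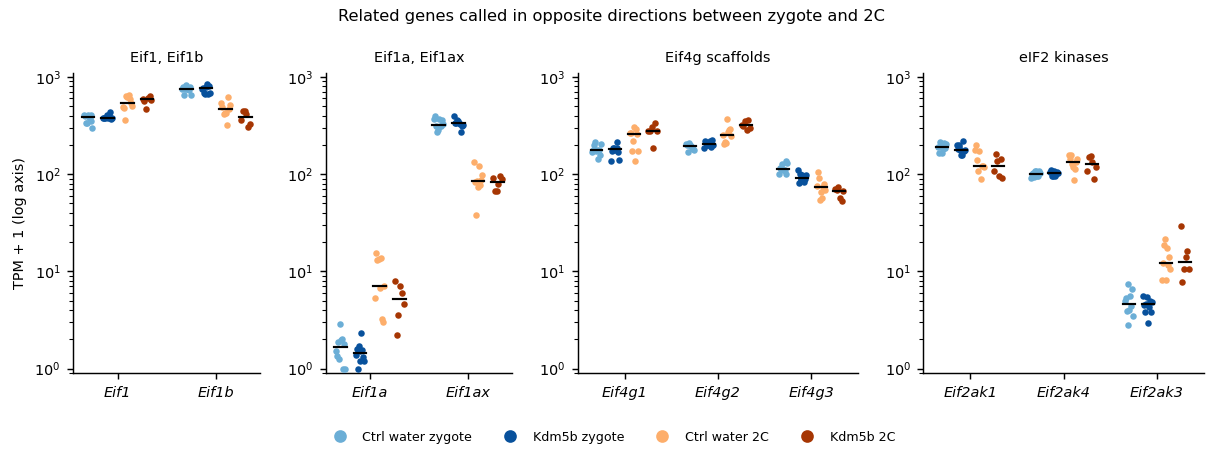
TPM + 1 on a log axis in all 35 samples for the related genes of which some rose and some fell between the control stages, with a bar at each group's median. Eif1 rises while Eif1b falls, Eif1a rises from near 0 while Eif1ax falls, Eif4g1 and Eif4g2 rise while Eif4g3 falls, and Eif2ak3 and Eif2ak4 rise while Eif2ak1 falls, a call that was lost in controls without the pools.

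Among the genes that handle the cap, the scaffolds moved and the cap binders Eif4e, Eif4e2 and Eif4e3 were not called. Eif4e, Eif4e2 and Eif4e3 had log2 fold changes of 0.06, -0.19 and 0.14 in controls and -0.17, -0.33 and 0.13 in injected embryos, with adjusted p of at least 0.0711 in edgeR's test. In injected embryos Eif4e was called lower without the filter on low counts (-0.24, adjusted p = 0.0216) and Eif4e2 with single intact 2C embryos only (-0.42, adjusted p = 0.0360). Median Eif4e was 158.7 TPM in Ctrl water zygotes and 161 TPM in Ctrl water 2C. Eif4e1b, the oocyte form of eIF4E, which the naming rule left out, had medians of 1556 TPM and 1213 TPM, so its level was above that of Eif4e in both; it fell by 0.23 on the log2 scale in controls (adjusted p = 0.0264 with edgeR) and had -0.10 (adjusted p = 0.304) in injected embryos.

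Eif4g1, the main scaffold, ran from 142 to 212 TPM with a median of 176 in Ctrl water zygotes and from 136 to 305 TPM with a median of 257 in Ctrl water 2C. It ran from 137 to 212 TPM (median 179) in Kdm5b zygotes and from 185 to 331 TPM (median 278) in Kdm5b 2C. The groups overlapped, with 6 of 9 control 2C samples above all control zygotes and 1 below all of them, and the log2 fold change was 0.46 ± 0.12 (SE, adjusted p = 0.00319) in controls and 0.77 ± 0.10 (adjusted p = 4.99e-07) in injected embryos. Eif4g2 encodes DAP5, a scaffold that lacks the eIF4E site and serves initiation without the cap. It ran from 167 to 209.6 TPM (median 194) in Ctrl water zygotes, from 205 to 365 TPM (median 251) in Ctrl water 2C, from 184 to 222 TPM (median 203) in Kdm5b zygotes and from 281 to 361 TPM (median 316) in Kdm5b 2C. Its control stages overlapped and its injected stages did not, with log2 fold changes of 0.52 ± 0.09 (SE, adjusted p = 2.1e-05) and 0.76 ± 0.07 (adjusted p = 1.26e-09).

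Eif4g3, another scaffold that binds eIF4E, went the other way. It ran from 99.0 to 136 TPM with a median of 111 in Ctrl water zygotes and from 53.0 to 104 TPM with a median of 72.2 in Ctrl water 2C, with 8 of 9 control 2C samples below all control zygotes. The log2 fold change was -0.55 ± 0.11 (SE, adjusted p = 0.000159) in controls and -0.42 ± 0.09 (adjusted p = 0.000337) in injected embryos, where the stages did not overlap. It ran from 80.6 to 108 TPM (median 90.7) in Kdm5b zygotes and from 51.9 to 72.3 TPM (median 66.7) in Kdm5b 2C.

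eIF4A unwinds the start of the mRNA, and eIF4B and eIF4H help it. Eif4a1, the abundant helicase, ran from 522 to 639 TPM with a median of 608 in Ctrl water zygotes and from 417 to 852 TPM with a median of 537 in Ctrl water 2C. In injected embryos it ran from 585 to 744 TPM (median 629) in zygotes and from 366 to 831 TPM (median 646) in 2C. The stages overlapped, and the log2 fold changes of 0.05 ± 0.12 (SE, adjusted p = 0.756) and 0.09 ± 0.11 (adjusted p = 0.495) were not called. The 3 control pools of blastomeres, at 429, 441 and 445 TPM, and the injected pool, at 366 TPM, lay in the lower part of the 2C range.

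Eif4b ran from 399.7 to 455 TPM with a median of 437 in Ctrl water zygotes and from 239 to 400.3 TPM with a median of 255 in Ctrl water 2C. It ran from 383 to 439 TPM (median 396) in Kdm5b zygotes and from 137 to 243 TPM (median 188) in Kdm5b 2C. In controls 8 of 9 2C samples lay below all zygotes and in injected embryos all did, with log2 fold changes of -0.52 ± 0.09 (SE, adjusted p = 2.05e-05) and -0.96 ± 0.11 (adjusted p = 3.32e-08). Eif4h, the shorter relative of Eif4b, fell by 1.68 and 1.84 on the log2 scale with no overlap. Eif4a2 fell by 0.32 in controls, where the call was lost in 14 of 28 alternative fits, and by 0.48 in injected embryos. Eif4a3, the helicase that stays on spliced mRNA in the exon junction complex, had -0.48 ± 0.21 (adjusted p = 0.0531) in controls and fell by 0.48 in injected embryos.

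The 4E-BPs were scarce, with a summed median of 15.9 TPM in Ctrl water zygotes and 23.3 TPM in Ctrl water 2C. Eif4ebp1 rose by a log2 fold change of 2.19 ± 0.63 (SE, adjusted p = 0.00476) in controls and 1.90 ± 0.62 in injected embryos, from at most 27 counts in any control zygote. It was too scarce for a test between the zygote groups. Its 2C counts brought it into the stage fits, so its rise is not independent of that selection. Eif4ebp2 rose only in injected embryos, by 0.69, and Eif4ebp3 passed the filter on low counts in neither stage comparison. No test of a difference between the injections was called for Eif4ebp2 (interaction 0.48 ± 0.28, adjusted p = 0.631).

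Of the 4 eIF2α kinase genes, 2 rose and 1 fell between the control stages, where 26.8% of all genes rose and 25.4% fell. The call of the 1 that fell, Eif2ak1, was lost with single intact 2C embryos only. Eif2ak3 encodes PERK, the kinase of the endoplasmic reticulum stress response. It ran from 1.84 to 6.50 TPM with a median of 3.64 in Ctrl water zygotes and from 7.09 to 20.7 TPM with a median of 11.1 in Ctrl water 2C. In injected embryos it ran from 1.93 to 4.54 TPM (median 3.57) in zygotes and from 6.70 to 28.0 TPM (median 11.4) in 2C. All 2C samples lay above all zygotes, 3.49-fold higher in controls (log2 fold change 1.80 ± 0.25, SE; adjusted p = 9.12e-07) and 4.16-fold higher in injected embryos.

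Eif2ak4 encodes GCN2, which senses uncharged tRNA. It ran from 90.9 to 106 TPM with a median of 99.9 in Ctrl water zygotes and from 86.8 to 158 TPM with a median of 133 in Ctrl water 2C, and from 93.7 to 109 TPM (median 101) and 87.1 to 152 TPM (median 125) in the injected stages. In controls 8 of 9 2C samples lay above all zygotes and 1 below all, and the log2 fold changes were 0.49 ± 0.09 (SE, adjusted p = 9.45e-05) and 0.41 ± 0.10 (adjusted p = 0.00138). Eif2ak1 encodes HRI, the haem-regulated kinase, and ran from 165 to 213 TPM with a median of 188 in Ctrl water zygotes and from 88.8 to 197 TPM with a median of 121 in Ctrl water 2C. It ran from 156 to 220.3 TPM (median 178) in Kdm5b zygotes and from 89.6 to 161 TPM (median 121) in Kdm5b 2C, so the stages overlapped at both injections. It fell by log2 fold changes of -0.38 ± 0.12 (SE, adjusted p = 0.00849) and -0.49 ± 0.11 (adjusted p = 0.000576). The control call was lost with single intact 2C embryos only, at -0.31 ± 0.14 (adjusted p = 0.0682). By median TPM, Eif2ak1 was the most abundant kinase gene in zygotes and Eif2ak4 in 2C. By mean TPM, Eif2ak1 was above Eif2ak4 in Ctrl water 2C, at 137.5 and 130.6, and below it in Kdm5b 2C, at 121.5 and 123.8. The summed level of the kinase genes overlapped between the stages, with medians of 289 and 273 TPM in controls.

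Eif5a, whose product carries the modified residue hypusine and helps ribosomes through difficult stretches, rose with the smallest p among the genes that rose. It ran from 288 to 343 TPM with a median of 311 in Ctrl water zygotes and from 374 to 663 TPM with a median of 562 in Ctrl water 2C. Kdm5b zygotes spanned 289.9 to 350.2 TPM (median 322) and Kdm5b 2C samples 563 to 686 TPM (median 644). All 2C samples lay above all zygotes, with log2 fold changes of 0.90 ± 0.09 (SE, adjusted p = 9.44e-09) and 1.09 ± 0.07 (adjusted p = 9.15e-12). Its relative Eif5a2 rose too, by 1.97 and 2.13, from a median of 1.25 TPM to 5.40 TPM in controls. The genes of the enzymes that make hypusine, Dhps and Dohh, had median levels of at most 5.21 TPM in every group, and neither was called in either stage comparison. Eif6, which keeps the ribosomal subunits apart, fell by 0.48 in controls and had -0.24 ± 0.16 (adjusted p = 0.223) in injected embryos.

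**Figure D4:**
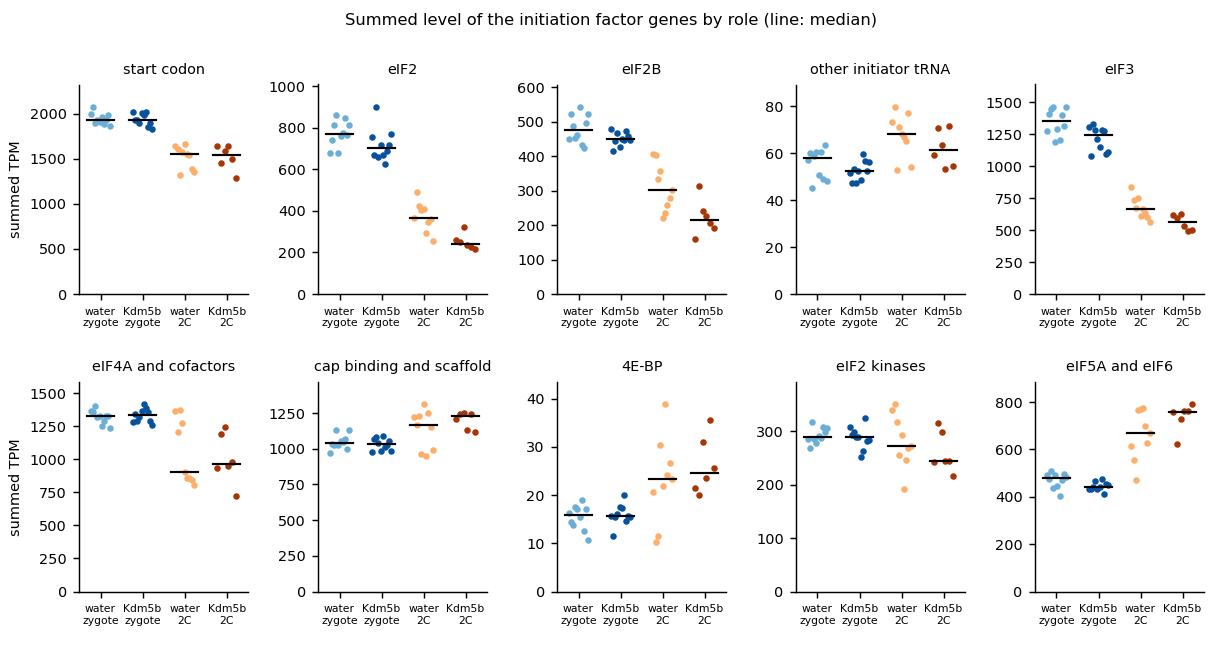
Summed TPM (y axis from 0, a scale for each panel) of the initiation factor genes of each role in every sample of the 4 groups, with a bar at the group's median. The 2C samples lie below the zygotes for eIF2, eIF2B and eIF3, whose medians in controls were 769 and 367, 475 and 301, and 1357 and 668, and mostly above them for eIF5A and eIF6.

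Kdm5b-yfp mRNA was compared with water within each stage. In zygotes 49 initiation factor genes were tested, and 1, Eif4g3, was called, where 0.134% of all 11933 genes were called. Eif4g3 ran from 99.0 to 136 TPM with a median of 111 in Ctrl water zygotes and from 80.6 to 108 TPM with a median of 90.7 in Kdm5b zygotes. The groups overlapped, although 9 of 10 injected zygotes lay below all controls, and the log2 fold change was -0.31 ± 0.06 (SE, adjusted p = 0.0306). The call was lost in 14 of 31 alternative fits, among them those on the 4 control and 4 injected zygotes of a single strip (8 consecutive index numbers, a grouping inferred here that no source calls a batch), at -0.26 and -0.37, and 10 of the 20 that left out a sample. With Eif4g3, 12 of the 49 genes had an unadjusted p under 0.05, 3 higher and 9 lower, where 10.3% of all genes did. Eif6 came next at -0.34 ± 0.09 (adjusted p = 0.116 with edgeR). DESeq2's Wald test called Eif6, at -0.35 ± 0.10 (adjusted p = 0.0246), and Eif4g3, 2 of the 42 genes to which it gave an adjusted p, where it called 1.50% of all genes. The scarce Eif2ak2, which encodes the RNA-activated kinase PKR, had 0.95 ± 0.36 (adjusted p = 0.343), with 0.348 to 2.07 TPM in Ctrl water zygotes and 0.601 to 2.98 TPM in Kdm5b zygotes, which overlapped. Over the 49 genes 33 log2 fold changes were negative (67.3%), where 47.4% of all genes were, and the median was -0.08 against 0.01.

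In 2C samples 0 of 51 genes were called with edgeR, where 0.0245% of all 12244 genes were called; 1 higher and 5 lower had an unadjusted p under 0.05, where 9.41% of all genes did. DESeq2's Wald test called 2 of the 30 genes to which it gave an adjusted p, Eif2s2 and Eif4b, where it called 1.84% of all genes. In a single edgeR fit of all samples 5 of 52 were called, Eif2s2, Eif4b, Eif3j1 and Eif2b1 lower and Eif4g2 higher, where 3.83% of all genes were. Eif2s2 had the smallest p, with 169 to 387 TPM (median 259) in Ctrl water 2C and 135 to 217 TPM (median 159.8) in Kdm5b 2C. In 5 of 6 injected samples it lay below all controls, and the log2 fold change was -0.64 ± 0.15 (SE, adjusted p = 0.154 with edgeR). Eif4b followed at -0.53 ± 0.15 (adjusted p = 0.244), with 5 of 6 injected samples below all controls. Of the 2C samples, 5 of 6 injected and 3 of 9 control ones came from 1 such inferred strip. With strip as a covariate 3 genes were called, Eif2s2 and Eif4b lower and Eif4g2 higher, where 2.07% of all genes were. Within that strip alone, with 5 injected and 3 control samples, 0 were called, where 10 of all 12426 genes were called higher and 101 lower. The log2 fold changes there were -0.82 ± 0.19 (SE, adjusted p = 0.0539 with edgeR) for Eif2s2, -0.79 ± 0.19 for Eif4b and 0.55 ± 0.14 for Eif4g2. Over the 51 genes 36 log2 fold changes were negative (70.6%), where 50.3% of all genes were, with a median of -0.08 against 0.00.

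Whether the injection acted differently at the stages was tested as an interaction over all 35 samples. With edgeR 0 of 52 genes were called, where 0.109% of 13778 genes were; 1 gene with a positive and 4 with a negative value had an unadjusted p under 0.05, where 9.10% of all genes did. DESeq2's Wald test called 1 of 49, Eif2s2, where it called 0.816% of all genes. Eif2s2 had the smallest p here too, at -0.55 ± 0.15 (SE, adjusted p = 0.144). With index strip as a covariate 4 of 52 genes were called, where 2.48% of all genes were: Eif2s2 at -0.67 ± 0.16 (adjusted p = 0.0143), Eif4b at -0.62 ± 0.13, Eif2b1 at -0.68 ± 0.18 and Eif5a at 0.40 ± 0.11. Whether Eif2s2 fell more in injected embryos than in controls thus depended on the fit.

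**Figure D5:**
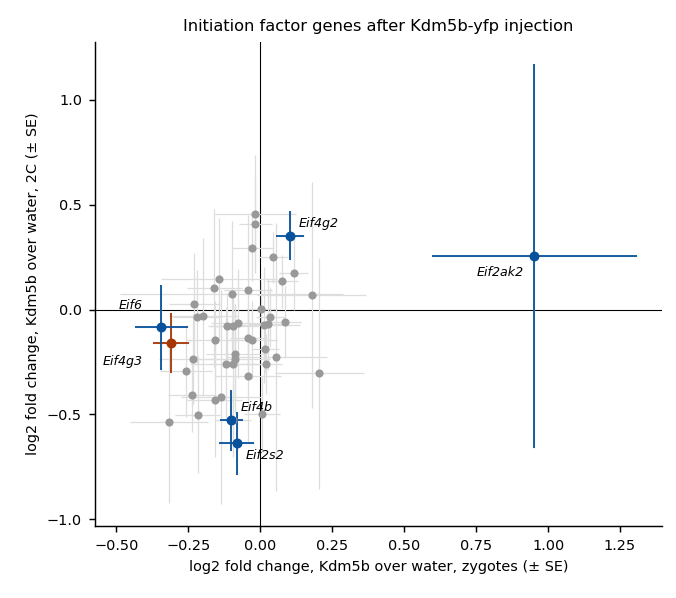
Log2 fold change of Kdm5b over water in zygotes (x axis) and in 2C samples (y axis) for the initiation factor genes tested in both, each with its standard error. Eif4g3, the single gene called, in zygotes, is brown; the other named genes are blue, with Eif2s2 lowest at -0.64 in 2C.

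Other genes of the translation pathway, listed by function, were mixed between the control stages. Over all genes 26.8% rose and 25.4% fell, as given above. Of 16 initiation partners tested, 5 rose and 5 fell, shares near those. The smallest p belonged to Ltv1, a factor of small subunit assembly (log2 fold change -1.96 ± 0.16, adjusted p = 3.15e-10), Paip2, which holds poly(A)-binding protein (-1.50 ± 0.12), and Ddx3x, a helicase that helps scanning (0.65 ± 0.07). Of 15 genes that signal to eIF4E and eIF2, 5 rose and 2 fell. Mknk2, a kinase of eIF4E, rose by 1.82 while its relative Mknk1 fell by 1.32, and Nck1, an adaptor that recruits the phosphatase of eIF2α, fell by 2.60. Atf4, which is translated when eIF2α is phosphorylated, had -0.18 (adjusted p = 0.292) and medians of 369 and 317 TPM.

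In elongation, 1 of 9 genes tested rose (Eef2k, the kinase that inhibits eEF2, by 0.32) and 5 fell. Eef1d and Eef1e1 fell by 2.05 and 1.66, whereas Eef1a1, the carrier of aminoacyl-tRNA, had -0.17 (adjusted p = 0.0665) from a median of 1107 TPM in Ctrl water zygotes. Of 5 termination and recycling genes, Gspt2 fell by 2.97, from a median of 376 to 39.5 TPM, Gspt1 fell by 0.57 and Etf1, the release factor, rose by 0.60. In injected embryos, where 29.3% of all genes rose and 29.5% fell, 4 of the 16 partners rose and 7 fell, 6 of 15 signalling genes rose and 3 fell, 0 of 9 elongation genes rose and 7 fell, and 1 of 5 termination genes rose and 3 fell. These counts are a description of short lists, with no test. After Kdm5b-yfp mRNA, 0 genes of these lists were called at either stage by edgeR's test. Over the same interval 8 of 10 oocyte and zygote markers fell in controls and 7 of 10 in injected embryos. Of the 9 markers of the 2-cell stage tested, 9 rose in controls and 8 in injected embryos. The part of these markers in the stage differences was not tested.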

How the data were processed

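RNA from single embryos or pooled blastomeres was sequenced with a stranded full-length kit. Per the labels and the study's methods, the authors trimmed reads with fastp 0.21.0, aligned them with STAR 2.7.3a to the mouse genome (GRCm38/mm10) and deposited raw counts of fragments per RefSeq gene from featureCounts 1.5.1, with both ends mapped, by strand and without multi-mapping fragments. Genes with near copies therefore lose fragments. The deposited table of repeats was not used.

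The Kdm5b row was removed. Genes passing filterByExpr (minimum count 10) were fitted with edgeR 4.0.16 (TMM, quasi-likelihood; R 4.3.3), on the groups compared only, or on all 35 samples for the interaction, with Benjamini-Hochberg adjustment. The fit was tested on simulated counts. The standard error is that of the log2 fold change in this fit. TPM used the exon lengths in the deposited table. No sample columns were identical and no column was unmapped. The members and lists were chosen with earlier results of these data known. The genes given in full are the 6 with the smallest p in each direction between the control stages, those with the smallest p in each injection comparison and the interaction, the 4 most abundant in control zygotes, and related genes called in opposite directions; the others are given by role. Promoter words were searched in RefSeq windows. The study's methods say that the zygotes of several females were pooled before they were handled. Nothing in the labels says that samples came from separate mice, so p-values measure the spread between these samples. Alternatives were DESeq2 1.42.0, other scalings and filters, a replicate block, strips of 8 consecutive index numbers (inferred from the index numbers in the labels), single intact 2C embryos only and leaving out each sample. Figures were drawn with matplotlib 3.10.9.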

Additional observations from a re-analysis of the deposited data

Results flagged for a closer look

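In 6 of 116 sets of values (a gene or summed role in a group of samples), 1 sample stood apart from its group by Dixon's criterion, and chance flags about 1 in 20. In Kdm5b zygotes, Eif1 was highest in replicate 8, at 436.7 TPM, where the next sample had 401.1 and the lowest 365.8. Eif3m was highest in replicate 1 of the same group, at 106.4 TPM, with the next at 85.67. The summed eIF2 level was highest in replicate 3 of that group, at 900.1 TPM, with the next at 771. In Kdm5b 2C, Eif2s2 was highest in replicate 3, at 217 TPM, where the other 5 samples lay between 135.2 and 163.6. Eif4g1 was lowest in replicate 4 of that group, at 185.4 TPM, with the next at 276.5, and the summed level of eIF5A and eIF6 was lowest in replicate 2, at 623.3 TPM, with the next at 727.7. The cause of these values was not tested.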

How the results depend on the processing

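The stage counts were 11 higher and 23 lower in controls and 12 and 25 in injected embryos. Leaving out 1 sample gave 9 to 12 and 22 to 24, and 12 to 13 and 25 to 29. With a log2 fold change over 1 in addition, they were 4 and 14, and 5 and 14. Over all genes 1101 and 1555 of 11968 passed in controls, and 1301 and 1977 of 12390 in injected embryos. For the injection in zygotes (1 gene), leaving out 1 sample gave 0 to 2, DESeq2's Wald test gave 2, and a single fit of all samples, either strip of zygotes alone (chosen after seeing the data) and a fold change over 1 gave 0. The call was lost without Ctrl water zygote replicate 3, 4, 6, 8 or 10 and without Kdm5b zygote replicate 2, 4, 5, 7 or 9, and 2 genes were called without Ctrl water zygote replicate 7. For the injection in 2C (0 genes), leaving out 1 sample gave 0 to 0, the Wald test 2, the single fit 5 and index strip as a covariate 3. For the interaction (0 genes), leaving out 1 sample gave 0 to 0, the Wald test 1 and the strip covariate 4. With the Kdm5b row kept, the mean summed level in Kdm5b zygotes was 7290 TPM in place of 7477. On TMM-scaled CPM the stage ratios of the summed level were 0.892 in place of 0.788 in controls and 0.923 in place of 0.781 in injected embryos. The cause of these changes was not tested.

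With a replicate block, the stage counts were 10 higher and 24 lower in controls, where 2594 and 2992 of all 11868 genes were. In injected embryos they were 12 and 25, where 2914 and 3259 of all 11850 genes were. The injection called 0 initiation factor genes in zygotes, 0 in 2C and 0 in the interaction. Over all genes it called 5 higher and 14 lower of 11933 in zygotes, 0 and 17 of 11678 in 2C, and 0 and 0 of 13188 in the interaction. Samples with the same number did not deviate together between the control stages (median correlation 0.00, over 9 pairs, from -0.07 to 0.05). Between the injected stages the median was 0.01 over 6 pairs, from -0.06 to 0.05. It was 0.02 over 10 pairs between the zygote groups, from -0.07 to 0.10, and 0.05 over 6 pairs between the 2C groups, from -0.26 to 0.10. The numbers were therefore not taken to pair the samples. No log2 fold change of a gene called in the main results turned its sign. Among genes not called there, Eif5 between the control stages turned from -0.01 to 0.27 and was called with single intact embryos only. Those fits gave 12 higher and 21 lower in controls (31 of 33 shared with the full groups), where 23.3% of all genes rose and 21.9% fell. In injected embryos they gave 12 and 28 (37 of 40 shared), where 27.8% of all genes rose and 28.4% fell. They gained Eif3a and Eif5 and lost Eif2ak1, Eif2s3x and Eif4a2 in controls, and gained Eif3j2, Eif4e2 and Eif6, all lower, in injected embryos. Eif1a, Eif4ebp1 and Eif5a2 rest on few counts in zygotes, which limits the precision of their fold changes.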
